A study of Homo sapiens with 17 samples.

Results

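YAP1 and TEAD1, together with 8 genes that regulate them or serve as readouts of their activity, were followed in human neuroblastoma cells after induction of the intracellular domain of NOTCH3. The genes were YAP1, WWTR1 (which encodes TAZ), TEAD1, LATS2, AJUBA, AMOTL2, CCN1 (formerly CYR61), CCN2 (formerly CTGF), ANKRD1 and AXL. All array features annotated to these 10 genes were taken, which gave 24 probe sets of 54675 on the array. A probe set is a group of short probes read as one value, and 15 of the 24 passed the intensity filter, which left 7 of the 10 genes for testing among 13675 tested genes of 19775 annotated. The rule that picked the genes goes by name and uses no measured value, but the list was drawn up with earlier results of these data known.

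The cells were IMR32, an established neuroblastoma line, grown in DMEM with fetal calf serum. Both clones, c6 and c8, carried an inducible NOTCH3IC construct, which encodes the active, nuclear part of the NOTCH3 receptor, and doxycycline in the medium switched it on. One array was hybridised per clone and time, at times 0, 4, 8, 12, 24, 48, 72, 96 and 120 in clone c6 (9 arrays) and at times 0 to 96 in clone c8 (8 arrays), with times printed as labelled because the labels give no unit. The start is time 0, the early phase is times 4, 8 and 12, and the late phase is times 48, 72 and 96. No culture without doxycycline was sampled after time 0, so time in culture, doxycycline and NOTCH3IC cannot be told apart. Each clone is a single isolate. In comparisons with the start and of the clone levels, the error is the disagreement between the clones in their course over time. In late against early and the clone difference in response, differences among the times of a phase enter the error too. Whether each time was a culture of its own is not stated in the labels, and p-values therefore measure only the variation among these arrays, which may be technical.

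YAP1 and TAZ are transcriptional coactivators that bind DNA through the TEAD transcription factors. The Hippo kinase cascade, ending in LATS1 and LATS2, phosphorylates them and keeps them out of the nucleus, while cell spreading, tension of the actin cytoskeleton and low cell density release them. CCN1, CCN2, ANKRD1, AMOTL2, AJUBA, LATS2 and AXL are commonly used as target genes, and AMOTL2, AJUBA and LATS2 also feed back on the pathway. The phosphorylation and location of the proteins, on which their activity depends, are not read by an expression array.

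The DNA sequence that TEAD factors bind is known, so the start-site windows of the genes were searched for its core, GGAATG, on both strands (CATTCC on the other strand). RefSeq windows of 300 bases on GRCh38.p14, 250 before and 50 after an annotated start, were at hand for 8 of the 10 genes (12 windows), and 7 of the 12 windows, 1 from each of 7 genes, held the core. Among all 35116 such windows 14.0% held it and 1.37% held it 2 times or more. The CCN2 window had 3 matches and the ANKRD1 window had 2, whereas YAP1 and the second AMOTL2 start had 1 each. The 250 bases before the start are printed for these 4 genes, because they set the target gene that rose from near background (CCN2) beside one that stayed dim (ANKRD1), with the coactivator (YAP1) and a feedback regulator (AMOTL2). Capitals mark the core on either strand, and each sequence runs 5′ to 3′ on the strand of the gene.
CCN2, chr6:131951373-131951622 (minus strand): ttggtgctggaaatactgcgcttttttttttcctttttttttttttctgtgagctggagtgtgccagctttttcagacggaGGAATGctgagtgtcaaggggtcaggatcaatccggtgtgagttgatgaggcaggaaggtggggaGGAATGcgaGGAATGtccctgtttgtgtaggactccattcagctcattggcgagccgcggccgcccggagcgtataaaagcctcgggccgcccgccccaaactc
ANKRD1, chr10:90921088-90921337 (minus strand): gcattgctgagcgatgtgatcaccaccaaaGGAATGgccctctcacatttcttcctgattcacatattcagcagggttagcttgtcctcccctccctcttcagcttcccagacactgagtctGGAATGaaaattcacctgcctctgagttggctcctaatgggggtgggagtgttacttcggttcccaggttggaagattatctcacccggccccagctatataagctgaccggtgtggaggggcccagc
AMOTL2, chr3:134374448-134374697 (minus strand): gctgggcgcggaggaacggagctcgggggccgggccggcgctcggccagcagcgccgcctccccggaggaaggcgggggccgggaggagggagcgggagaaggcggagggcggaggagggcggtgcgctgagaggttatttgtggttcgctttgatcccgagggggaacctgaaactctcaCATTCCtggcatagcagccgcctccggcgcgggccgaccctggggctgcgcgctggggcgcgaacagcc
YAP1, chr11:102110197-102110446 (plus strand): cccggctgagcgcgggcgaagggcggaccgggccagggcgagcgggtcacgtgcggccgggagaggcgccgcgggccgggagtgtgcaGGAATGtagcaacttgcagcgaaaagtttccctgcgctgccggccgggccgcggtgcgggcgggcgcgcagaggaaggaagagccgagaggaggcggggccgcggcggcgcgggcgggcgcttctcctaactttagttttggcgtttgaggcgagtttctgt

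In the CCN2 window the matches began 169, 104 and 95 bases before the start, all on the strand of the gene. In the ANKRD1 window they began 220 and 128 bases before the start, also on the strand of the gene. The YAP1 match began 162 bases before the start, and the match in AMOTL2, 69 bases before the start, lay on the other strand. AJUBA (second start) and AXL (second start) had 1 match each, the single match of LATS2 began at base 10 after the start, and both WWTR1 windows had none. CCN1 and TEAD1 had no entry. The core of the site bound by RBPJ, the DNA-binding partner of NOTCH intracellular domains, was searched as TGGGAA on both strands. It was found 2 times in the ANKRD1 window, 1 time in the second AXL window, and in 24.0% of all windows. The AP-1 site TGANTCA, which contains neither of the other cores, was found 1 time in the ANKRD1 window and in 7.71% of all windows, and the serum response element known as the CArG box was found in none of the 12 windows and in 1.29% of all. No match overlapped another. A match is a string of letters in a window and not evidence of binding, which the arrays did not measure.

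The arrays had median signals of 14.6 to 19.3 and the induction could be read in both clones. The NOTCH3 signal was 94.6 at time 0 and 393.4 to 467.3 in the late phase of clone c6, and 218.3 and 703.3 to 835.6 in clone c8. At times 4, 8 and 12 clone c6 had 75.2, 160.8 and 205.1, so time 4 lay below time 0. Clone c8 had 274.7, 440 and 780.3 at these times. NOTCH3 did not pass limma's test early against start. It passed without the time 4, 12 or 72 array of clone c6, or without time 72 of clone c8. Whether its probe set reads the transcript of the construct was not tested. The Notch target genes HES1 and HEY1 lay at least 2-fold above their own time 0 from time 4 on in both clones. The ratio of the 3′ to the 5′ probe sets, a measure of RNA integrity, was 0.930 to 1.12 for GAPDH. For ACTB it was 1.22 to 1.49 in clone c6 and 1.56 to 1.70 in clone c8. Of the 9 sympathetic neuroblastoma markers with a probe set, 8 passed the filter and TH did not (highest signal 8.5).

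Of the 7 measured genes, 6 passed in at least 1 comparison between times, and not all at the same times. TEAD1 was higher in the early phase, AJUBA was higher at time 24, and the secreted matricellular proteins CCN1 and CCN2 rose late, with their largest step on the log2 scale between times 48 and 72 in both clones. YAP1 and AMOTL2 were higher in the late than in the early phase. Over all times, 5 of the 7 genes (CCN1, CCN2, AMOTL2, YAP1 and AJUBA) changed by limma's F test over the time terms, with Benjamini-Hochberg adjustment over all genes, against 6.61% of all genes. LATS2 (adjusted p = 0.338) and TEAD1 (adjusted p = 0.171) did not pass that test. The plot of signals over time shows each of these courses.

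**Figure D1:**
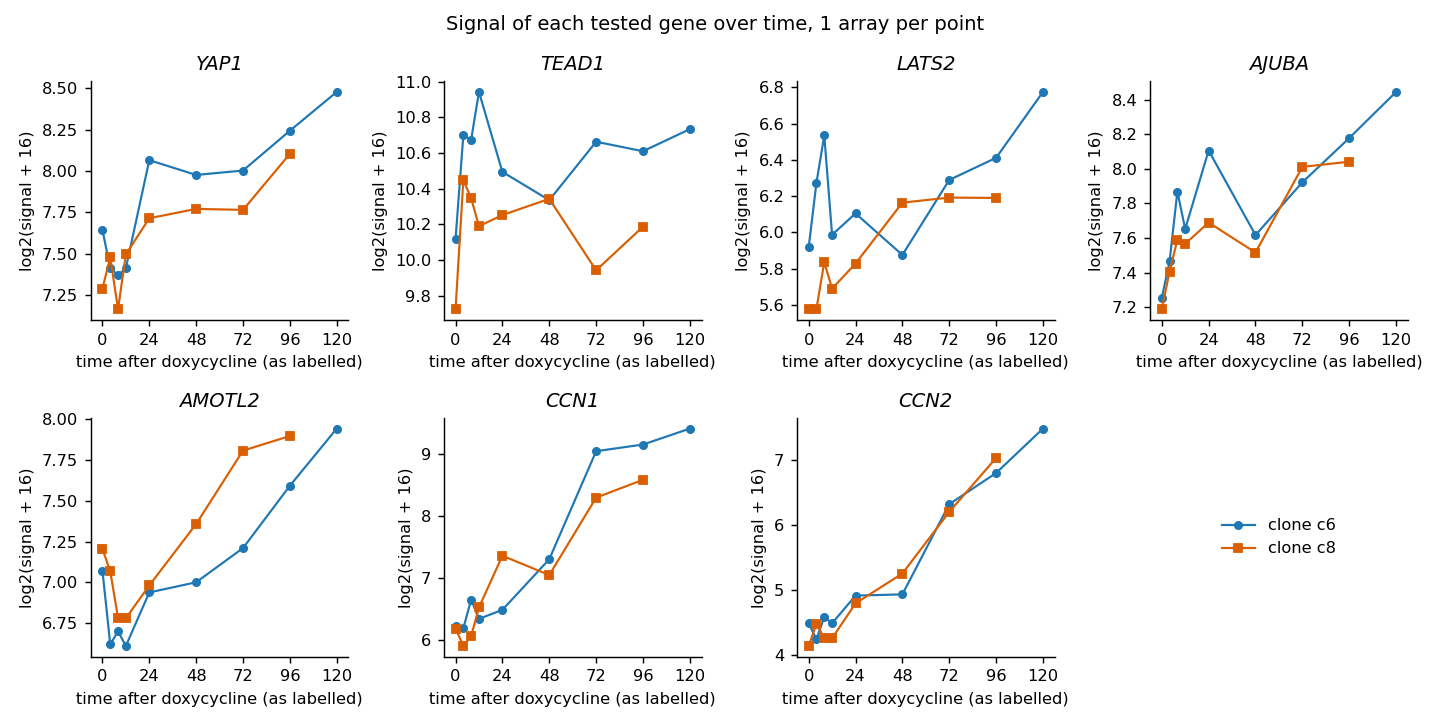
Signal of the 7 tested genes as log2(signal + 16) against time as labelled, 1 array per point, with clone c6 as blue circles and clone c8 as orange squares; each panel has its own vertical range. CCN1 and CCN2 stay low to time 12 and reach their highest values at the last time of each clone, while TEAD1 is already above time 0 at time 4.

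Late against start, 4 of the 7 genes rose: CCN1, CCN2, AJUBA and YAP1. Among all genes tested 6.94% passed in this comparison, 5.21% higher and 1.73% lower. The median log2 change of the 7 was 0.51, beside 0.015 over all genes, and all 7 had a value above 0. Late against early, which leaves out the time 0 arrays, 4 of the 7 rose as well: CCN1, CCN2, AMOTL2 and YAP1, beside 5.18% of all genes called and 3.77% called higher. In the early phase only TEAD1 passed (1 of 7, beside 2.01% of all genes and 1.29% higher), and at time 24 only AJUBA (1 of 7, beside 8.18% and 5.76% higher). The early and late comparisons share the time 0 arrays, so an error in these arrays enters both.

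**Figure D2:**
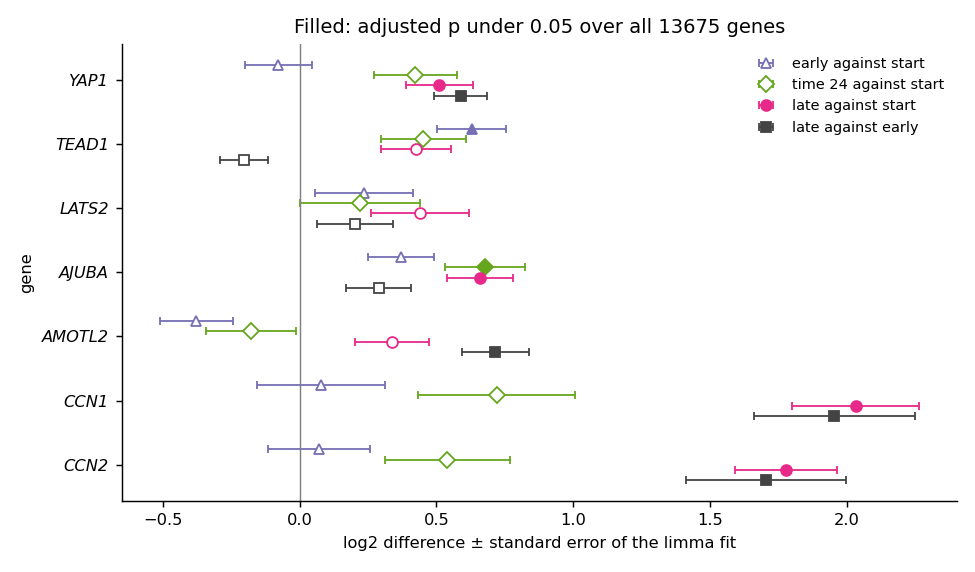
Log2 difference of each tested gene in 4 comparisons (horizontal axis), with the standard error of the limma fit as bars; filled symbols have an adjusted p under 0.05 over all tested genes. CCN1 and CCN2 lie near 2.03 and 1.78 late against start and close to 0 early, and AMOTL2 lies on either side of 0 early and late.

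YAP1, the coactivator itself, changed by less than its target genes CCN1 and CCN2. In clone c6 its signal was 184 at time 0, then 154.4, 149.3 and 154.4 at times 4, 8 and 12, 251.9 at time 24, 235.8, 240.5 and 287.1 at times 48, 72 and 96, and 340.7 at time 120. In clone c8 it was 140.4 at time 0, then 162.2, 127.4 and 164.5, 194 at time 24, and 202.4, 201.5 and 259.1 in the late phase. On this probe set, 224894_at, every late array was above every early array, also across the clones (lowest late signal 201.5, highest early signal 164.5). The log2 difference late against early was 0.59 ± 0.10 (SE, limma adjusted p = 0.00136), and late against start it was 0.51 ± 0.12 (adjusted p = 0.0178). Early against start it was -0.08 ± 0.12 (adjusted p = 0.841).

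A second YAP1 probe set, 224895_at, gave 0.56 ± 0.15 late against start (adjusted p = 0.0458 over all probe sets), a call lost after quantile normalization (adjusted p = 0.0613), after median centring (adjusted p = 0.0940) and without the clone term (adjusted p = 0.231), and the third, 213342_at, gave 0.41 ± 0.18 (adjusted p = 0.287). The YAP1 call against the start rested on both time 0 arrays: without that of clone c6 the difference was 0.62 (adjusted p = 0.0829) and without that of clone c8 it was 0.40 (adjusted p = 0.342). It was also lost when arrays were centred on their medians (0.44, adjusted p = 0.0870) and without the clone term (adjusted p = 0.0937). With time 48 or time 72 alone as the late phase it was lost as well (adjusted p = 0.211 and 0.165). With time 96 alone it passed (0.71 ± 0.15, adjusted p = 0.00952, beside 5.13% of all genes called). In either clone alone the call was lost (0.43 in clone c6, 0.59 in clone c8), where the fit had terms for phases in place of times. The difference late against early passed in 22 of 23 other settings and was lost in clone c8 alone (0.50, adjusted p = 0.221). Neither of the other probe sets passed late against early: 224895_at gave 0.42 ± 0.12 (adjusted p = 0.0625) and 213342_at gave 0.53 ± 0.16 (adjusted p = 0.0894). Their late arrays lay above their early arrays in clone c6 and overlapped with them in clone c8.

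TEAD1, the DNA-binding partner of YAP1, was the gene of the 7 that passed in the early phase. In clone c6 its signal was 1094.2 at time 0, then 1646.1, 1618.1 and 1950.9 at times 4, 8 and 12, 1425.2 at time 24, 1275.5, 1604.6 and 1545.7 in the late phase, and 1686.1 at time 120. In clone c8 it was 829.2 at time 0, then 1380.3, 1284.2 and 1151.2, 1202.7 at time 24, and 1282, 967.2 and 1149 in the late phase. All 6 early and all 6 late arrays were above the time 0 of their clone. The early difference was 0.63 ± 0.13 (SE, limma adjusted p = 0.0179), a 1.55-fold rise. Taken alone, time 4 gave 0.65 ± 0.16 (adjusted p = 0.277) and time 8 gave 0.59 ± 0.16 (adjusted p = 0.127), and neither passed. At time 12 the difference was of like size and passed (0.65 ± 0.16, adjusted p = 0.0228). Of all genes 0.0731%, 0.622% and 6.16% were called at times 4, 8 and 12. The late difference was 0.43 ± 0.13 (adjusted p = 0.0583) and did not pass.

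The late TEAD1 value stood close to the threshold: it passed in 6 of 32 other settings, among them quantile normalization (0.47, adjusted p = 0.0390). The early call was lost without the time 0 array of clone c6 (0.63, adjusted p = 0.297) or of clone c8 (0.63, adjusted p = 0.237), and without an intensity trend in the variance model (adjusted p = 0.0703), without the clone term (adjusted p = 0.377), or in either clone alone (adjusted p = 0.368 and 0.540). The other TEAD1 probe sets gave early differences of 0.51 ± 0.18 (1553322_s_at, adjusted p = 0.229) and 0.35 ± 0.15 (214600_at, adjusted p = 0.376), neither of which passed. In 214600_at the late difference was 0.05 ± 0.15 and turned to -0.0038 after quantile normalization and -0.023 after median centring.

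TEAD1 was also the gene of the 7 with the larger called difference between the clones. It was lower in clone c8 than in clone c6 by a log2 difference of -0.39 ± 0.08 (SE, limma adjusted p = 0.00271), and this passed in all 24 other settings. AMOTL2 was higher in clone c8 by 0.27 ± 0.08 (adjusted p = 0.0316), a call that was lost in 8 of the 16 fits without 1 array (those of times 4, 48, 72 or 96 of either clone, 0.22 to 0.26, adjusted p = 0.0653 to 0.0810) and without an intensity filter (adjusted p = 0.0530). These were 2 of 7 genes, beside 21.7% of all genes called between the clones, with a difference in the ACTB ratio between the clones whose part in either value was not tested. Leaving out either array of a time takes that time out of the comparison of clone levels, so the 2 fits for a time are not separate checks. The change from early to late did not differ detectably between the clones for any of the 7 (0 of 7, beside 0% of all genes, where 1193 genes had an unadjusted p under 0.05, LATS2 among them at 0.0400). With 1 array per clone and time that comparison had 8 residual degrees of freedom, and the SE of the clone difference was 0.18 (TEAD1) to 0.60 (CCN1).

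LATS2, the kinase that phosphorylates YAP1 and TAZ, did not pass in any comparison. Its difference between the clones, -0.29 ± 0.11 (lower in clone c8, limma adjusted p = 0.0728), passed when the time 48 array of clone c6 or of clone c8 was left out (-0.38 in both, as either takes out time 48, adjusted p = 0.0216 and 0.0218). In clone c6 its signal was 44.4 at time 0, then 61.4, 76.7 and 47.4, 52.8 at time 24, 42.7, 62.2 and 69.1 in the late phase, and 93.5 at time 120. Clone c8 had 31.7 at time 0, then 31.8, 41.1 and 35.6, 40.8 at time 24, and 55.7, 57.1 and 57 in the late phase. The late arrays lay above the early arrays in clone c8 and overlapped with them in clone c6. Late against start the difference was 0.44 ± 0.18 (SE, limma adjusted p = 0.191), and the second probe set, 227013_at, gave 0.59 ± 0.19 (adjusted p = 0.0974). Late against early it was 0.20 ± 0.14 (adjusted p = 0.539), and the sign turned in clone c6 alone (-0.07).

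AJUBA encodes a LIM-domain scaffold that binds LATS kinases and restrains them. In clone c6 its signal was 136.5 at time 0, then 160.7, 217.7 and 185.1, 259.5 at time 24, 180.3, 226.5 and 273.6 in the late phase, and 332.5 at time 120. In clone c8 it was 129.8 at time 0, then 153.6, 176.7 and 173.5, 190.4 at time 24, and 167, 242 and 247.4 in the late phase. All arrays after time 0 were above the time 0 of their clone, time 48 was below time 24 in both clones, and early and late arrays overlapped. At time 24 the difference from the start was 0.68 ± 0.15 (SE, limma adjusted p = 0.0105), and late against start it was 0.66 ± 0.12 (adjusted p = 0.00225), a 1.58-fold rise. Early against start it was 0.37 ± 0.12 (adjusted p = 0.148), and late against early 0.29 ± 0.12 (adjusted p = 0.227).

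The late AJUBA difference was 0.35 ± 0.15 at time 48 (adjusted p = 0.306), 0.75 ± 0.15 at time 72 (adjusted p = 0.00685) and 0.89 ± 0.15 at time 96 (adjusted p = 0.00130). Without the time 0 array of clone c6 the late call was lost (0.62, adjusted p = 0.0806), as it was in either clone alone (adjusted p = 0.246 and 0.328). The time 24 call was lost when either time 0 array was left out (0.64, adjusted p = 0.117, without that of clone c6, and 0.72, adjusted p = 0.0761, without that of clone c8) and without the time 24 array of clone c6 (0.51, adjusted p = 0.180). Among the other AJUBA probe sets, 1553764_a_at rose late by 0.65 ± 0.14 (adjusted p = 0.0109, and 0.182 without the clone term). Late against start 225807_at gave 0.31 ± 0.19 (adjusted p = 0.491), and 243446_at was too dim to test (highest signal 13.9). At time 24 neither 1553764_a_at (0.45 ± 0.17, adjusted p = 0.157) nor 225807_at (0.47 ± 0.23, adjusted p = 0.302) passed.

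AMOTL2 encodes an angiomotin family protein that binds YAP1 and holds it outside the nucleus. In clone c6 its signal was 118.6 at time 0, then 82.5, 88 and 81.8, 106.7 at time 24, 112.1, 132.1 and 176.9 in the late phase, and 229.8 at time 120. Clone c8 had 131.6 at time 0, then 118.2, 94.2 and 94, 110.4 at time 24, and 148, 207.9 and 222.2 in the late phase. All 6 early arrays were below the time 0 of their clone and 5 of 6 late arrays were above it, and within each clone late and early arrays did not overlap. Late against early the difference was 0.72 ± 0.12 (SE, limma adjusted p = 0.00162), a 1.64-fold rise, which just missed the threshold in either clone alone (adjusted p = 0.0545 and 0.0521). Early against start it was -0.38 ± 0.13 (adjusted p = 0.200) and late against start 0.34 ± 0.13 (adjusted p = 0.178), neither of which passed. Of the late times taken alone, time 48 differed from the start by 0.04 ± 0.16 (adjusted p = 0.963) and time 72 by 0.37 ± 0.16 (adjusted p = 0.279). Only time 96 passed (0.60 ± 0.16, adjusted p = 0.0443, beside 5.13% of all genes called).

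CCN1 and CCN2 encode secreted matricellular proteins that bind integrins, and they had the largest changes of the 7 genes late against start and late against early. In clone c6 the CCN1 signal was 58.8 at time 0, then 57.3, 85 and 65.4, 74 at time 24, 142.3, 512.3 and 553 in the late phase, and 663.7 at time 120. Clone c8 had 57 at time 0, then 44.2, 51.2 and 76.5, 148.6 at time 24, and 116.7, 298.7 and 368 in the late phase. Every late array was above every early array, and the last array of each clone was the highest, 11.3-fold above time 0 in clone c6 and 6.46-fold in clone c8 on the signal scale. Late against start the log2 difference was 2.03 ± 0.23 (SE, limma adjusted p = 3.72e-05), a 4.09-fold rise, and late against early it was 1.95 ± 0.29 (adjusted p = 0.000568). Early against start it was 0.08 ± 0.23 (adjusted p = 0.929).

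In CCN1 the clones parted at time 24, where clone c8 was 2-fold or more above its time 0 on the first probe set and clone c6 was not. The difference at time 24 was 0.72 ± 0.29 (adjusted p = 0.143). It was 1.32 without the time 24 array of clone c6 and 0.12 without that of clone c8. At time 48 it was 0.97 ± 0.29 (adjusted p = 0.0850, beside 3.69% of all genes called), at time 72 it was 2.46 ± 0.29 (adjusted p = 0.000113, beside 4.24%), and at time 96 it was 2.66 ± 0.29 (adjusted p = 3.56e-05). The second CCN1 probe set, 210764_s_at, rose by 1.56 ± 0.22 late against start (adjusted p = 0.000251), and its log2 values correlated with those of the first at r = 0.98 over the 17 arrays. Of the 15 tested probe sets of the 7 genes, 7 were called late against start, all higher, beside 4.74% of all 32805 tested probe sets and 3.64% called higher.

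CCN2 started near background. In clone c6 its signal was 6.4 at time 0, then 2.9, 8 and 6.4, 14.1 at time 24, 14.5, 63.8 and 95.3 in the late phase, and 162.7 at time 120. Clone c8 had 1.6 at time 0, then 6.3, 3.1 and 3.1, 11.7 at time 24, and 22.1, 57.5 and 114.7 in the late phase. No early array reached the lowest late array (highest early signal 8, lowest late signal 14.5). Late against start the log2 difference was 1.78 ± 0.19 (SE, limma adjusted p = 1.68e-05), and late against early it was 1.70 ± 0.29 (adjusted p = 0.00178). Because the signals up to time 48 were mostly below the array medians, the size depends on the constant added before the logarithm: it was 3.50 with 1 in place of 16 and 0.82 with 64. At time 48 the difference was 0.78 ± 0.23 (adjusted p = 0.0841), at time 72 it was 1.95 ± 0.23 (adjusted p = 0.000124), and at time 96 it was 2.60 ± 0.23 (adjusted p = 7.47e-06).

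The late rises of CCN1 and CCN2 passed without any single array left out, and their differences late against early passed in all 23 and all 22 other settings in which they were tested. In single-clone fits late against start, which have 1 time 0 array each, CCN1 had 2.28 (adjusted p = 0.0542) in clone c6 and 1.79 (adjusted p = 0.168) in clone c8, and CCN2 had 1.53 (adjusted p = 0.232) and 2.02 (adjusted p = 0.144). Their change within the late phase was set apart after the values were seen, as the mean of times 72 and 96 against time 48. The cut falls at the step already seen in CCN1 and CCN2, so the p-values and the count that follow are descriptive. CCN2 rose by 1.5 ± 0.20 (limma adjusted p = 0.0230), 1 of 2 genes called among all (0.0146%). The other was LMOD1, an actin-nucleating leiomodin of smooth muscle (1.59 ± 0.23, adjusted p = 0.0307). CCN1 had 1.59 ± 0.25 at an adjusted p of 0.05001 and missed the threshold.

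**Figure D3:**
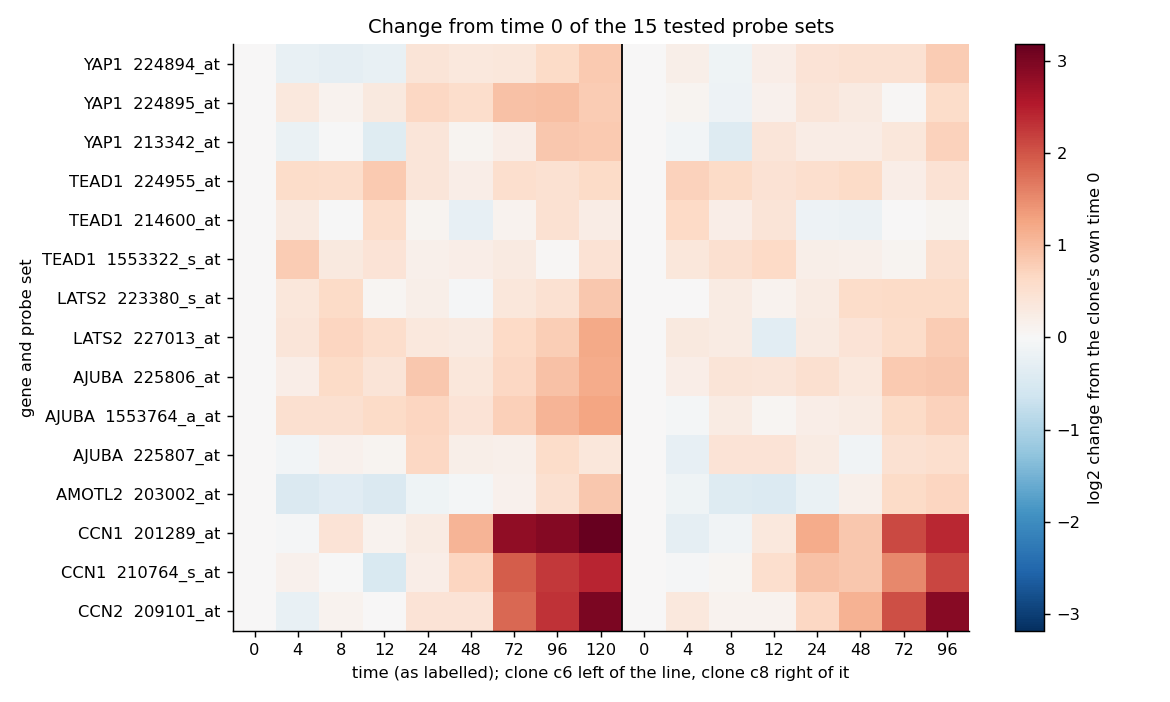
Log2 change from the time 0 of the same clone for the 15 tested probe sets (rows, with their gene) in each array (columns, by time as labelled, clone c6 left of the line and clone c8 right of it); red is higher and blue is lower. The 2 CCN1 rows and the CCN2 row darken from time 72 on in both clones, and the AMOTL2 row is blue at times 4, 8 and 12.

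ANKRD1, AXL and WWTR1 were below the intensity filter on every probe set. ANKRD1, a cardiac ankyrin repeat protein and a standard YAP target, had signals between 0.4 and 22.6 with a median of 4.6. Its 3 highest values were 22.6, 13.4 and 11.4, at times 72, 96 and 120 of clone c6, and the highest in clone c8 was 9.6, at time 96. AXL, a receptor tyrosine kinase bound by GAS6, had a highest signal of 11 (time 24 of clone c6) over its 2 probe sets. WWTR1, the gene of the second coactivator TAZ, reached 21.2 at time 4 of clone c6 on 1 of its 3 probe sets and 14 and 7.4 on the others. The array medians were 14.6 to 19.3, so these signals lay mostly below the middle of the array, and no level is drawn from them. Without the filter, ANKRD1 had a late log2 difference of 0.35 (limma adjusted p = 0.411), AXL of 0.12 (adjusted p = 0.783) and WWTR1 of 0.03 (adjusted p = 0.976).

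**Figure D4:**
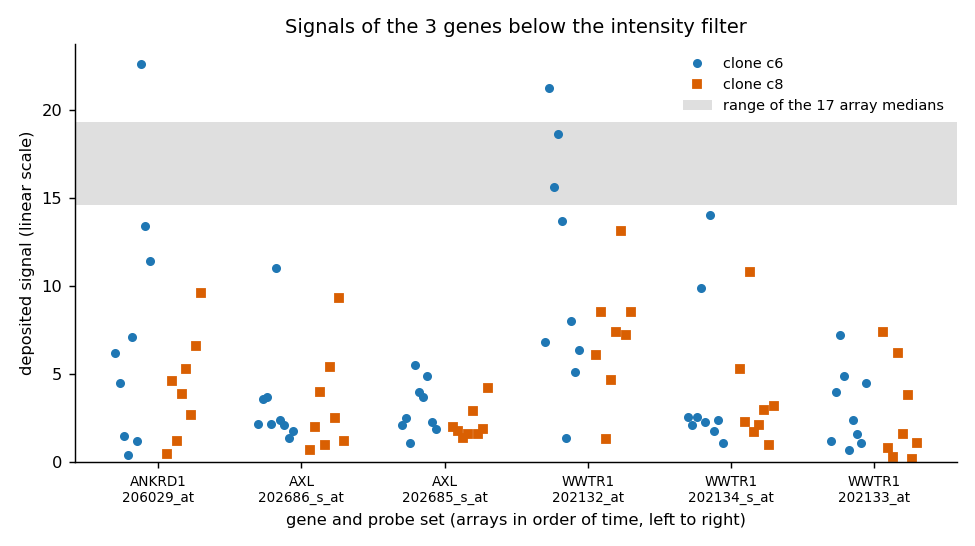
Deposited signals (vertical axis, linear) of the 6 probe sets of ANKRD1, AXL and WWTR1, 1 point per array in order of time from left to right, clone c6 in blue and clone c8 in orange; the grey band is the range of the 17 array medians, 14.6 to 19.3. Most points lie below the band, and the highest is an ANKRD1 value of 22.6 in clone c6.

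The courses of the 7 genes were compared by the Pearson correlation of their log2 values over the 17 arrays, which share the same clones and times, so that any pair of genes that rise late is correlated. CCN1 and CCN2 had r = 0.95, and the 15 pairs without TEAD1 lay between 0.41 and 0.95. The 6 pairs with TEAD1 lay between -0.27 (with AMOTL2) and 0.55 (with LATS2). Over all tested genes, those most like CCN1 were CCN2, PLN (phospholamban, which regulates the calcium pump of muscle, r = 0.95) and ACTG2 (smooth muscle gamma actin, r = 0.94). Those most like CCN2 were LMOD1 (r = 0.97), MGP (matrix Gla protein, r = 0.96) and ACTG2 (r = 0.96). Late against start the log2 differences of these genes were 2.51 (PLN), 2.61 (ACTG2), 1.54 (LMOD1) and 2.52 (MGP), and the ACTG2 signal was 14.3 and 24.1 at time 0 and 101 to 343.5 in the late phase.

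For the other genes the likeness was as follows. YAP1 was most like PAPSS2, an enzyme that makes the sulfate donor of the cell (r = 0.94), LUM, which encodes the matrix proteoglycan lumican (r = 0.94), and PLS3, an actin-bundling plastin (r = 0.94). AMOTL2 was most like C3orf70 (r = 0.91), MYL4, a myosin light chain (r = 0.91), and TNMD (tenomodulin, r = 0.90). AJUBA was most like NTN4, a netrin (r = 0.89), DOK4 (r = 0.88) and LASP1, an actin-binding adaptor (r = 0.87). TEAD1 was most like SETD7, a lysine methyltransferase (r = 0.89), SOWAHC (r = 0.88) and LRRC8B (r = 0.86), and LATS2 was most like MYADM (r = 0.85), GPC3 (glypican 3, r = 0.84) and FHL2 (r = 0.82).

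Other parts of the pathway were counted from lists of genes. The lists were chosen with earlier results of these data known, so the counts are descriptive. Of 19 tested upstream Hippo kinases and scaffolds (20 listed), 2 rose, 1 fell and 16 did not pass late against start, beside 6.94% of all genes called, with a median of -0.014. WWC3, a scaffold of the KIBRA family, gave 0.63 ± 0.13 (SE, limma adjusted p = 0.00568) and the giant cadherin FAT1 gave 0.47 ± 0.12 (adjusted p = 0.0289), while the kinase MAP4K4 fell by 0.48 ± 0.11 (adjusted p = 0.0154). FAT4 had 0.59 ± 0.19 and did not pass (adjusted p = 0.0892). The FAT1 call was lost after median centring (0.40, adjusted p = 0.111) and without the time 48 or time 96 array of clone c6 (adjusted p = 0.0641 and 0.0862), and the calls of all 3 were lost when either time 0 array was left out. None of the 4 relatives of AMOTL2 and AJUBA (AMOT, AMOTL1, LIMD1 and WTIP) passed limma's test late against start, and none had an unadjusted p under 0.05 there. Between the clones LIMD1 was higher in clone c8 by 0.61 ± 0.09 (adjusted p = 0.000327), and early against start it had -0.35 ± 0.15 (unadjusted p = 0.0320, adjusted p = 0.295).

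Among 6 tested TEAD relatives and VGLL cofactors (7 listed), VGLL3 rose and the other 5 did not pass late against start, beside 5.21% of all genes called higher. VGLL proteins bind TEAD factors at the surface that YAP1 uses. The VGLL3 signal was 6.6 at time 0 of clone c6 and 45.4 to 53 in its late phase, and 7.9 and 32.8 to 40.3 in clone c8, with no overlap of early and late arrays (highest early signal 20.4). Its log2 difference was 1.32 ± 0.16 (SE, limma adjusted p = 7.07e-05), and the call was kept under both other scalings and without each single array. VGLL4, a cofactor that represses TEAD output, had 0.40 ± 0.14 (adjusted p = 0.110, and 0.0365 without the time 12 array of clone c6 and 0.0372 without that of clone c8), TEAD3 had 0.25 ± 0.15 and TEAD2 had 0.20 ± 0.12. The TEAD2 signal was 302.4 at time 0 of clone c6, 350.2 to 537.7 early and 329.5 to 356.7 late. In clone c8 it was 219.8, then 287.7 to 334.8 and 228.1 to 293.8. All 6 early arrays of TEAD2 were above the time 0 of their clone. None of the 6 tested genes passed early against start, beside 2.01% of all genes. Without the time 24 or time 72 array of either clone, 1 of them was called higher early. VGLL1 was below the filter (highest signal 13).

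Genes commonly listed as other YAP and TAZ targets went both ways. Of 12 tested (16 listed), 5 rose, 2 fell and 5 did not pass late against start, with a median of 0.37, beside 5.21% of all genes called higher and 1.73% called lower. IGFBP3, a secreted binding protein of insulin-like growth factors, rose by 3.0 ± 0.34 (SE, limma adjusted p = 3.42e-05), MYOF, the membrane repair protein myoferlin, by 2.14 ± 0.27 (adjusted p = 0.000103) and ARHGEF17, an exchange factor for RhoA, by 1.45 ± 0.18 (adjusted p = 0.000102). DOCK5 (0.75 ± 0.17) and RBMS3 (0.69 ± 0.14) also rose. F3, which encodes tissue factor, fell by 1.32 ± 0.16 (adjusted p = 5.69e-05), and GADD45A, a stress-response gene, fell by 0.79 ± 0.17 (adjusted p = 0.00765). The calls of DOCK5 and GADD45A were lost when either time 0 array was left out, and that of RBMS3 without the time 0 array of clone c8 (0.48, adjusted p = 0.273).

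Among these 12 target genes 3 passed early against start, beside 2.01% of all genes. CCN1 and CCN2 did not pass there, though the difference was not tested. ARHGEF17 (0.92 ± 0.18, adjusted p = 0.0177) and DOCK5 (0.85 ± 0.17, adjusted p = 0.0192) were higher early, and GADD45A had fallen (-0.77 ± 0.17, adjusted p = 0.0284). These 3 early calls were lost when either time 0 array was left out, that of DOCK5 also without time 8 of clone c8 (adjusted p = 0.0527), and that of GADD45A also without time 8 of either clone or time 4 of clone c8 (adjusted p = 0.0539 to 0.0638). Without time 12 of clone c6 the early calls were 4 higher and 2 lower, with IGFBP3 (1.26, adjusted p = 0.0379), MYOF (1.22, adjusted p = 0.00624) and F3 (-0.71, adjusted p = 0.0238) added and the others still called. Of the CCN1 and CCN2 relatives and the relatives and ligand of AXL, 4 of 7 were bright enough to test and none passed limma's test or had an unadjusted p under 0.05 late against start, where CCN3 had 0.22 ± 0.20, TYRO3 0.26 ± 0.15, MERTK -0.11 ± 0.21 and the ligand GAS6 -0.15 ± 0.16. TYRO3 had 0.47 ± 0.18 at time 24 (unadjusted p = 0.0193, adjusted p = 0.127), and GAS6 had 0.28 ± 0.10 in clone c8 against clone c6 (unadjusted p = 0.0126, adjusted p = 0.0557). CCN4, CCN5 and CCN6 were below the filter.

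**Figure D5:**
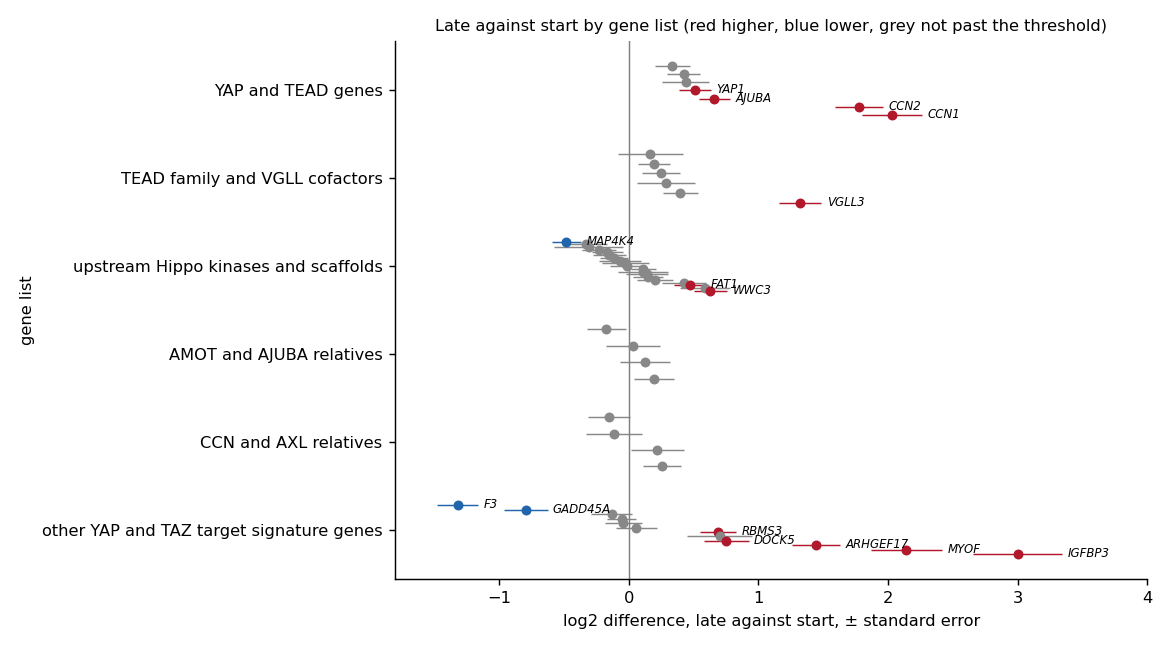
Log2 difference late against start (horizontal axis) with the standard error of the limma fit for every tested gene of the YAP and TEAD genes and 5 related lists (rows); red genes were called higher, blue genes lower, and grey genes did not pass. The red CCN1 and CCN2 points lie near 2, IGFBP3 at 3.0 lies farthest right, and F3 at -1.32 lies farthest left.

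Markers of other cell states, on lists also chosen with earlier results of these data known, moved in the same arrays. Of 9 tested fibroblast and mesenchymal markers (10 listed), 5 rose late against start, beside 5.21% of all genes called higher: LUM (3.85 ± 0.33), FN1, which encodes fibronectin (2.97 ± 0.29), SNAI2 (0.99 ± 0.13), DCN (0.85 ± 0.21) and VIM (0.39 ± 0.10). The calls of DCN and VIM were lost when either time 0 array was left out, and that of VIM also after median centring (0.31, adjusted p = 0.0756) and without time 96 of clone c6 (adjusted p = 0.0635). The summed signal of the 10 markers was 4246 to 6061 at the start, 4732 to 8316 early and 7523 to 12369 late. Most of this sum was VIM, with 3426 to 4820 at the start and 4265 to 7559 late. FN1 had 172 to 272 at the start and 1341 to 2437 late, so the sum does not stand for the whole list. CD44, a surface receptor of mesenchymal cells, was below the filter on all its probe sets (highest signal 20.3), and the collagen gene COL1A2 was dim on every array (highest signal 19). Their part in the rises of CCN1, CCN2, AJUBA and YAP1 was not tested, and in these bulk samples a change in the share of cells of a type and a change of RNA per cell cannot be told apart. Of 8 tested sympathetic neuroblastoma markers, DBH (-2.19 ± 0.34) and PHOX2A (-0.77 ± 0.13) fell late, beside 1.73% of all genes called lower (PHOX2A -0.72, adjusted p = 0.0594, without the time 0 array of clone c8), and the summed signal of the 9 with a probe set was 12901 to 12996 at the start, 9793 to 12628 early and 9528 to 11267 late. MYCN and GATA3 made up most of the sympathetic sum (4915 to 5493 and 3871 to 4151 at the start), and neither was called late. In the early phase, when TEAD1 passed, SNAI2 was higher (0.88 ± 0.13, adjusted p = 0.00196). ISL1, a transcription factor of sympathetic neuroblasts, was lower (-0.81 ± 0.16, adjusted p = 0.0184). The ISL1 signal was 334.7 and 358.5 at the start, 163 to 237.6 early and 236.9 to 385.9 late. Both early marker calls were lost when either time 0 array was left out (adjusted p = 0.0584 to 0.292), without time 12 of clone c6 LUM and FN1 were called higher as well (0.85 and 1.10), and their part in the TEAD1 value was not tested.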

How the data were processed

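The deposited values are array intensities (signals) on a linear scale from a human Affymetrix expression array. MAS5 and GCOS are the tools named, with no version, role or setting, in the submitters' processing notes. From the values, the authors had scaled every array to a 2% trimmed mean of 100.01. Signals were transformed as log2(signal + 16), so fold changes of dim genes are understated. Probe sets with 1 gene symbol in the platform annotation (41097) were named through a RefSeq table, which held 41043 of them. A gene stood as its probe set of highest mean, kept at or above the 40th percentile of probe set means (log2 4.68). Genes and lists were chosen with earlier results of these data known. All comparisons used limma 3.58.1 in R 4.3.3 (eBayes, trend on intensity) and adjusted p-values by Benjamini-Hochberg over all tested genes, called under 0.05.

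Comparisons with the start used all 17 arrays with time and clone as terms (7 residual degrees of freedom), late against early used 12 arrays with clone as a term (9), and the clone difference in level used 16 arrays with time as a term (7). Clone pairs the arrays, per the labels, and the clone differences at shared times correlated between 0.13 and 0.49 across genes. No 2 arrays shared more than 1.42% of values. The scripts were tested on simulated data. The number of arrays limits the precision, and no detection calls were used. No build is named for the probe annotation in the sources used here, so only RefSeq windows carry coordinates. Named genes were all members, up to 4 of smallest p late against start per list, the induction checks and the 3 best-correlated genes per member, and further list genes past the threshold were named after their values were seen. Other settings were quantile normalization, centring on medians, pseudocounts of 1 and 64, filters at the 60th percentile or none, the mean of probe sets, no trend, no clone term, phase means, single clones, and each array left out. Single-clone fits against the start used phases in place of times, so trends within a phase entered their error. Single early times, single late times and the change within the late phase were added after seeing the data. Windows were searched with Python 3.11.15.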

Additional observations from a re-analysis of the deposited data

How the results depend on the processing

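Direction and side of the threshold were kept in 1084 of 1168 settings of single members, 49 lost a call, 13 gained one and 22 changed sign. The counts below are genes called among all tested, with the called members of the 7 where these changed. Early against start, 275 genes became 140 without a filter, 146 without a trend, 91 with phase means, 4 using only clone c6 and 15 using only clone c8, and the TEAD1 call (1 member) became 0 without a trend and in either clone alone. At time 24, 1119 genes became 703 without a filter, 574 with phase means, 403 with only clone c6 and 7 with only clone c8, and the AJUBA call became 0 in the last 3. Late against start, 949 genes became 303 with only clone c6, 93 with only clone c8, 504 with time 48 alone and 580 with time 72 alone, and the 4 members became 0 in either clone and at time 48. Late against start, 3 members passed with time 72 alone, after median centring and, of 6 tested, with the filter at the 60th percentile. In that comparison 5 passed after quantile normalization, with phase means and with time 96 alone. Change over time fell from 904 genes to 599 with the mean of probe sets and 591 without a trend. Late against early fell from 708 to 179 in clone c8 alone, where 2 members passed. There 3 members passed in clone c6 alone and, of 6 tested, with the filter at the 60th percentile. The clone difference in level had 1 member in place of 2 without a filter.

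With no replicate block (the clone term left out), change over time had 369 genes, early against start 63 with 0 members and time 24 against start 398 with 0 members. Late against start had 506 with 3 members, and the probe sets late against start 806, of which 4 were of members. The late split of 712 higher and 237 lower became 523 and 290 after median centring, which moved the median of all genes from 0.015 to -0.057. For probe sets 1195 and 361 became 910 and 468, and the called probe sets of members went from 7 to 5.

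Leaving out 1 array gave 556 to 1190 genes for change over time, 24 to 425 early, 299 to 1389 at time 24, 373 to 1091 late against start and 497 to 1244 late against early. The lowest counts of the first came without a time 0 array, as did the lowest early, time 24 and late counts, and the highest came without a time 12 array, that of clone c8 late against early and that of clone c6 in the others. Members called ranged from 0 to 1 early, 0 to 1 at time 24, 2 to 5 late against start and 1 to 3 for the clone level.

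Values that changed sign were near 0 or of wide error. CCN1 early was -0.019 in clone c8 alone and -0.0031 to 0.16 without 1 array, CCN2 early was -0.049 in clone c6 alone and -0.10 to 0.25, and YAP1 early was 0.090 in clone c8 alone and -0.18 to 0.029. LATS2 late against early was -0.073 in clone c6 alone. The clone difference in response of TEAD1 was -0.00084 after quantile normalization, -0.046 with the mean of probe sets and -0.034 to 0.17 without 1 array. That of AJUBA was -0.053 to 0.26, of CCN2 -0.29 to 0.71 and of CCN1 -0.89 to 0.17. The TEAD1 probe set 214600_at was -0.0038 late after quantile normalization and -0.023 after median centring. The cause of these changes was not tested.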
